A study of Homo sapiens with 2 samples.

Results

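The ID proteins, for inhibitor of DNA binding, are a family of 4 helix-loop-helix proteins encoded by ID1, ID2, ID3 and ID4. All probe sets annotated to these genes were taken from the deposited array values. There were 10 such probe sets among 54613 that are not controls. Of these, 9 carried a single ID symbol, 1 each for ID1 and ID3, 2 for ID2 and 5 for ID4. The tenth was annotated both to ID2 and to its pseudogene ID2B. The samples were A549 cells, an established line of human lung carcinoma cells, left as control or treated with TGF-β at 1 ng/ml for 12 h. Each condition had 1 Affymetrix array, so no difference given here has a replicate check or a p-value, and its precision is limited by the number of arrays.

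ID proteins have a helix-loop-helix domain but lack the basic region that touches DNA. They pair with the E proteins, which are widely expressed basic helix-loop-helix (bHLH) factors, and such pairs cannot bind the E box, the DNA site of bHLH factors. In this way ID proteins hold back differentiation and the cell cycle inhibitors that E proteins switch on. BMPs raise transcription of ID genes through Smad proteins, and TGF-β is known to lower several ID genes in epithelial cells.

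The 2 probe sets of ID2 and the brightest of ID4 had lower signals with TGF-β by over 3-fold, while ID1 and ID3 stayed within 2-fold. ID4 went from 1599 in control cells to 333 with TGF-β, a 4.81-fold fall, and ID2 from 1453 to 408, a 3.56-fold fall. ID1 read 14791 and 12563, and ID3 read 10528 and 16174, so the lone probe set of ID3 was the only one of a member above background that was higher with TGF-β. These values are intensities made with MAS5, the Affymetrix algorithm that gives a single linear signal per probe set. Signals of different probe sets cannot be set against each other as amounts of mRNA, so all comparisons are made between the arrays for the same probe set. Where a pair of signals is given, the control comes first. A culture with fewer ID2- or ID4-expressing cells and a culture with less of their mRNA per cell cannot be told apart in such data.

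The promoter sequences of these genes are shown because ID2 and ID4 were at least 2-fold lower and ID1 and ID3 were within 2-fold. Each is the stretch of 250 bases before the annotated start, from RefSeq on GRCh38.p14, written 5′ to 3′ on the strand of the gene. They lie at chr2:8681806-8682055 on the plus strand for ID2, chr6:19837120-19837369 on the plus strand for ID4, chr20:31605039-31605288 on the plus strand for ID1 and chr1:23559502-23559751 on the minus strand for ID3. Capitals mark matches on either strand to CANNTG (the E box), to GTCT (the core of a Smad site, which reads AGAC from the other strand) and to TGACG (part of the site of ATF and CREB factors, which reads CGTCA from the other strand).
ID2: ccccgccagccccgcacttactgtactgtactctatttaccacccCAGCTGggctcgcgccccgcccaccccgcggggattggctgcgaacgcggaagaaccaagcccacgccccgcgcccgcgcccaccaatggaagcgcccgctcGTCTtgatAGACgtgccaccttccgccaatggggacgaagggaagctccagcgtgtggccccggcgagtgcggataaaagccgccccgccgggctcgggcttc
ID4: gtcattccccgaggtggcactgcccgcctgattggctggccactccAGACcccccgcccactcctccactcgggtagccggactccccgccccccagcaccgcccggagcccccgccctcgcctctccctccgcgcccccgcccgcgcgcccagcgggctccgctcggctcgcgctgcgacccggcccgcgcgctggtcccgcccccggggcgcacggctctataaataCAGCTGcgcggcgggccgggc
ID1: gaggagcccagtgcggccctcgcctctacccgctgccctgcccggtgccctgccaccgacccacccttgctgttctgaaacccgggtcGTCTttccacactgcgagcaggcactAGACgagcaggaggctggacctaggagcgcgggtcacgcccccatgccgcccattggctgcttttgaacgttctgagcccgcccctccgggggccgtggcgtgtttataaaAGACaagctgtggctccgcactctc
ID3: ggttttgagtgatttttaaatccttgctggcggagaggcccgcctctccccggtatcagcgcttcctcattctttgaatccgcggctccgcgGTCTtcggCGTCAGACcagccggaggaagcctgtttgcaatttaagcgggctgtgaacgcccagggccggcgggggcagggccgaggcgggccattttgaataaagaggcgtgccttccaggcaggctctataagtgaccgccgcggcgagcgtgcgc

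Both ID2 and ID4 had 1 E box in this stretch, of the same letters, CAGCTG, and neither ID1 nor ID3 had a match to CANNTG. In ID2 it began 205 bases before the start and in ID4 21 bases before it. An E box was present in 61.8% of 35116 promoters of this length, so most genes share this trait. Any link of the E box to the falls of ID2 and ID4 was not tested. GTCT matched 3 times in ID1, 2 times each in ID2 and ID3 and 1 time in ID4, and 77.5% of promoters held it. TGACG was found in ID3 only, where it overlapped a GTCT match, and was present in 21.2% of promoters. GGCGCC, a GC-rich element of some BMP-responsive promoters, was in none of the 4 stretches and in 16.4% of all. The GC content was 78.8% for ID4, 69.2% for ID2, 66% for ID1 and 62% for ID3, against a median of 58% over all promoters. A match is a description of the letters and does not show that a factor binds there. Bases outside these stretches were not searched, so an absence holds for the stretch shown alone.

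As background served the highest signal among 27 probe sets for Bacillus subtilis transcripts, which was 45.8 without and 56.6 with TGF-β. Where the dimmer signal was at or under this level, the fold is given as a lower bound against it. Probe sets whose mean signal was under 48.7, the median, were left out, and a change of at least 2-fold was called higher or lower. This rule goes by size alone and involves no test. Of the 9 ID probe sets with a single symbol 8 were kept, and of these 5 were called lower and none higher. Over all 27307 kept probe sets, 2.97% were called lower and 3.89% higher. Among the 5 called lower, 3 had signals above background on both arrays, and the other 2, both of ID4, had a TGF-β signal at background. These ID4 probe sets passed the filter through their control signals alone. They could therefore not have been called higher, and their calls add no support for a fall.

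ID2 is a member known to bind proteins of the retinoblastoma family as well as E proteins. Its brighter probe set, 201565_s_at, gave 1453 without and 408 with TGF-β, which left 28.1% of the signal, a log2 fold change of -1.83. The dimmer one, 201566_x_at, read 263 and 81.6, which left 31.0%, a log2 fold change of -1.69. Thus the probe sets gave closely similar folds, 3.56 and 3.23, at levels of brightness far apart. The names of both end in _s_at or _x_at, which Affymetrix gives to probe sets that can bind more than a single transcript. The probe set shared with ID2B, 213931_at, read 54.8 and 44.9, the latter at background, and gives no fold. The probe set of ID2B alone, 210911_at, was at background on both arrays, with 18.8 and 6.11. ID2-AS1, an RNA gene named as antisense to ID2, had a probe set at 94.7 and 88.7 and another at 79.4 and 41.4, the last at background, and neither was called.

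ID4 is the member best known from neural and mammary cells. Its brightest probe set, 209291_at, whose name does not mark shared targets, gave 1599 without and 333 with TGF-β, which left 20.8% of the signal, a log2 fold change of -2.27. The next, 209293_x_at, read 231 and 119, a 1.94-fold difference just short of the 2-fold rule. For 209292_at the signal went from 228 to 36.9, at least 4.03-fold lower, and for 226933_s_at from 164 to 30.8, at least 2.89-fold lower. The fifth, 229386_at, read 11.0 and 15.8, at background on both arrays, and was not kept. All 4 kept ID4 probe sets were therefore lower with TGF-β, 3 of them past 2-fold, but 209292_at and 226933_s_at were kept through their control signals alone. The shared-target probe sets were 209293_x_at and 226933_s_at, the one short of 2-fold and the other past it.

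ID1 was measured by 208937_s_at alone. Its signal of 14791 in the control and 12563 with TGF-β is a log2 fold change of -0.24, with 84.9% of the signal left. ID3 was measured by 207826_s_at alone, with 10528 and 16174, a 1.54-fold difference and a log2 fold change of 0.62. Both probe sets are shared-target ones, and no other probe set of these genes was at hand to compare with. Both genes had bright signals in control and treated cells, far over background, so in neither case does a dim signal limit the ratio.

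**Figure D1:**
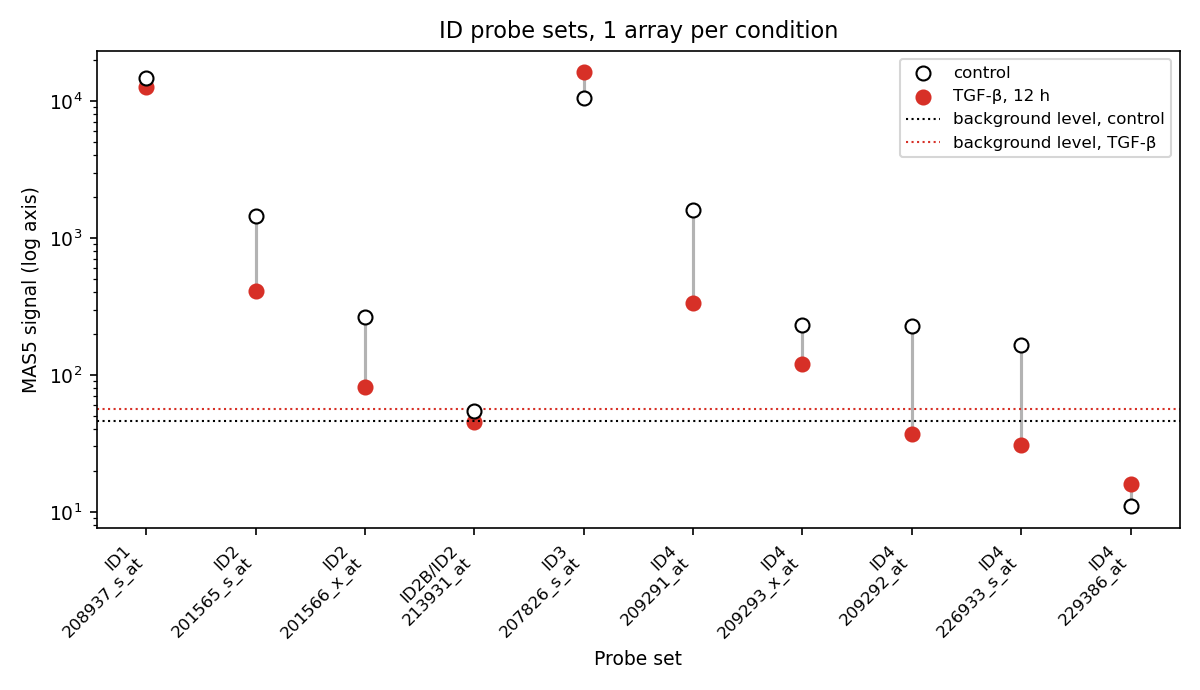
MAS5 signal (log axis) of each of the 10 probe sets annotated to an ID gene, in control cells (open points) and with TGF-β for 12 h (red points). Points are single arrays, and the background is dotted in black for the control (45.8) and in red for TGF-β (56.6). All kept ID2 and ID4 probe sets were lower with TGF-β, while ID3 was higher at 16174 against 10528.

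The brightest kept probe set then stood for each gene, which gave 12375 genes, 2.96% of them at least 2-fold lower. The median log2 fold change over all genes was -0.03, and that of the 4 ID genes, of which 2 were past 2-fold and 2 were not, was -1.03. Among the 11513 genes with signals above background on both arrays, the fall of ID4 ranked 5 and the fall of ID2 ranked 14. Among all 12375 genes these ranks were 39 and 71. At higher brightness falls were rarer, and of 7815 genes whose mean signal reached 349, 63 were at least 2-fold lower, or 0.806%. ID4 and ID2 were 2 of these 63. However, ID4 reached this mean through its control signal, as its TGF-β signal of 333 was under 349, so its place there adds no support. For ID1, 27.6% of the 12375 genes had a log2 fold change as low or lower, and for ID3, 8.57% had one as high or higher.

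The spread of log2 fold changes over the 500 kept probe sets nearest in brightness was 0.30 for ID4, 0.31 for ID2, 0.16 for ID1 and 0.16 for ID3. Replicates play no part in this spread, which is taken across probe sets. The change of ID4 was 7.48 times its spread, that of ID2 6.0 times, that of ID3, though short of 2-fold, 3.95 times and that of ID1 1.51 times.

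**Figure D2:**
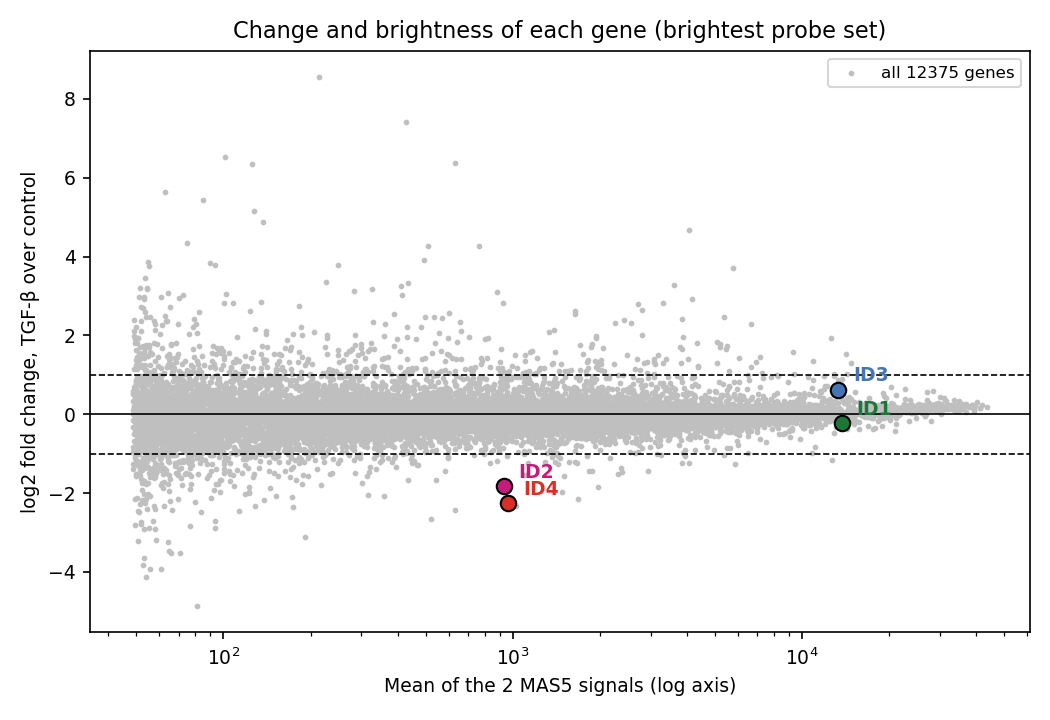
log2 fold change of TGF-β over control (y axis) against the mean of the MAS5 signals (x axis, log) for 12375 genes, each by its brightest kept probe set. Dashed lines mark 2-fold. ID4 at -2.27 and ID2 at -1.83 lie at the lower edge of genes of their brightness, and ID1 at -0.24 and ID3 at 0.62 lie between the lines.

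With 2 arrays, likeness of pattern can be judged only by the closeness of log2 fold changes, which was done among 7813 genes with a mean signal of at least 349 and signals above background. The 3 genes nearest to ID4 were TM4SF20 at -2.34, which the study singled out on these arrays, NPY1R at -2.15, a receptor of neuropeptide Y, and GDF15 at -2.44, a secreted protein of the TGF-β superfamily. The 3 nearest to ID2 were CCL20 at -1.86, a chemokine, PDK4 at -1.97, a kinase that inhibits pyruvate dehydrogenase, and RAB38 at -1.66, a small GTPase. Of these genes, TM4SF20, GDF15 and RAB38 reached the mean of 349 through their control signals, with TGF-β signals of 339, 197 and 209. Those nearest to ID3 were ACVR1, NEFM and ETV3, each at 0.62, and ACVR1 is itself a receptor for BMPs. Those nearest to ID1 were PDK1, WDR7 and BCOR, each at -0.24, in a range where many genes lie.

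The partners and regulators of ID proteins were described by 11 lists. Of the 100 measured genes in all these lists, 23 were at least 2-fold higher and 3 were lower, against 3.94% and 2.96% of all genes. Of the rises, 10 belong to a list of genes known to respond to Smad proteins, of which the study drew CCN2 and COL1A1 from these arrays, so this count is not independent evidence of its direction. In that list of 13 measured genes none was lower, and the median log2 fold change was 1.44. Among the rises were PMEPA1, an inhibitor of Smad signalling, at 3.79-fold, JUNB, an AP-1 factor, at 3.77-fold and SKIL, a Smad corepressor, at 2.72-fold.

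None of the 3 E proteins was called. TCF12 read 3166 and 3853, a log2 fold change of 0.28. TCF3 read 1200 and 1414, a log2 fold change of 0.24. TCF4 read 209 and 378, a log2 fold change of 0.86, and all its 7 kept probe sets were higher with TGF-β, from 0.29 to 1.17, although 1 alone passed 2-fold. The 8 kept probe sets of TCF3 did not share a direction. They ranged from -1.82, for a probe set with its TGF-β signal at background, to 0.79.

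Among 9 measured repressors of the HES, HEY and BHLHE groups, 3 were higher and none was lower, against 3.94% and 2.96% of all genes. These are bHLH factors that act at E boxes or related sites. BHLHE40 went from 1760 to 5776, 3.28-fold higher, and both of its probe sets passed 2-fold. HES6 went from 21.0, at background, to 102, at least 2.22-fold higher. When signals were floored at the array median, HES6 and HES7 no longer reached 2-fold and BHLHE40 alone, 1 of the 9, was higher. HES7 went from 26.2, at background, to 84.7, a rise of at least 1.85-fold, so that its bound is under 2-fold. HES1, the main Notch target of the group, read 877 and 757, while its other kept probe set went the other way, at 403 and 477. Of 46 tissue-restricted bHLH factors such as MYOD1, NEUROG1 and TWIST1, the signals of 30 were too dim to be kept, 9 were measured, and the remaining 7 were not analysed here. The one called was ATOH8, which is also known to respond to BMPs, from 132 to 43.2, at least 2.33-fold lower. With 50 added to every signal its log2 fold change was -0.96, short of 2-fold. Its other probe sets, at 28.5 and 26.8 and at 11.5 and 16.2, were at background on both arrays.

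The BMP arm, which raises ID transcription, includes ligands and antagonists. Of 11 measured, 3 were higher and 1 was lower, against 3.94% and 2.96% of all genes. BMP6, a ligand, went from 145 to 571, a 3.94-fold rise. BMP4, another ligand, went from 190 to 94.6, a 2.01-fold fall that was short of 2-fold under loess, quantile or median scaling and was -0.73 on the log2 scale with 50 added to every signal. NOG (noggin) and GREM1 (gremlin), secreted proteins that bind BMPs and keep them from their receptors, were both higher. NOG went from 22.2, at background, to 183, at least 3.99-fold higher, and GREM1 from 310 to 685, a 2.21-fold rise seen in both its probe sets. BMP5, a further ligand, read 289 and 209 by its brighter, shared-target probe set, which was not called, while the dimmer one went from 234 to 61.0, a 3.83-fold fall. The BMP5 probe sets thus disagree on the call. BMP2 read 368 and 728, a 1.98-fold difference, and its dimmer probe set lay just past 2-fold, with a log2 fold change of 1.02.

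Of 10 measured BMP receptors and Smads, BMPR2 alone was called, while over all genes 3.94% were higher and 2.96% lower. This type II receptor went from 859 to 2067, a 2.41-fold rise, and 4 of its 5 kept probe sets passed 2-fold. Of the Smads that carry BMP signals, SMAD1 at 1801 and 1799 and SMAD5 at 2029 and 2025 differed little. SMAD9 was too dim to be kept, and BMPR1A had no probe set annotated to it alone, so neither was covered. ACVRL1 and its partner ENG, the receptors through which TGF-β raises ID1 in endothelial cells, were too dim to be kept. Of 9 other measured genes known to respond to BMPs, 2 were higher, NOG and the inhibitory Smad SMAD7, and ATOH8 was lower. Each of these called genes is also counted in another list, SMAD7 among the Smad-responsive genes. SMAD7 went from 786 to 1620, a 2.06-fold rise that was just short of 2-fold with 50 added to every signal. SMAD6, the inhibitory Smad most tied to BMPs, read 662 and 964, and BAMBI, a decoy receptor, 7055 and 6690.

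**Figure D3:**
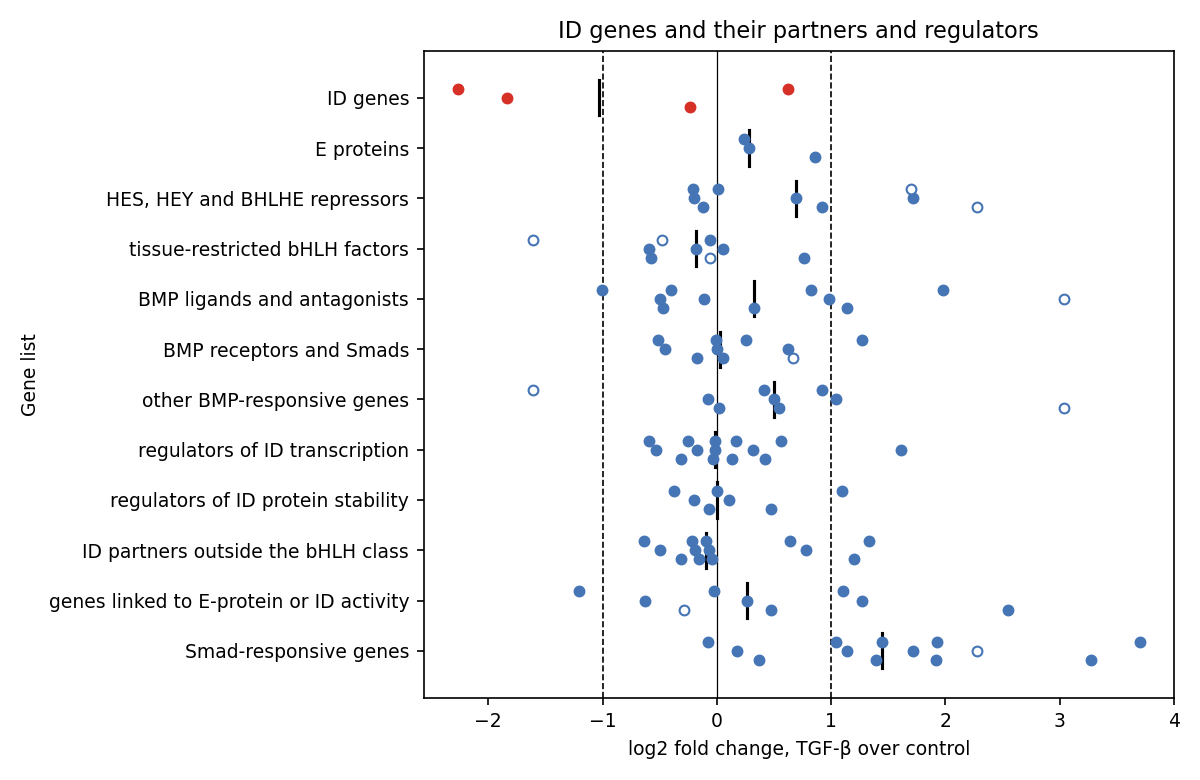
log2 fold change of TGF-β over control for the 4 ID genes (red) and for the measured genes of 11 lists of partners and regulators (blue), each by its brightest kept probe set. Open points have a signal at background on at least 1 array, black bars are medians, and dashed lines mark 2-fold. The ID genes have a median of -1.03 and the Smad-responsive genes a median of 1.44.

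Of 14 measured regulators of ID transcription, MYCN alone was called by its brightest probe set, at 201 and 613, a 3.05-fold rise. Over all genes 3.94% were higher and 2.96% lower. MYCN is an activator of ID2 in neuroblastoma. MYC read 4147 and 4060. ATF3, which joins SMAD3 in repression of ID1 in epithelial cells, read 586 and 783, and SMAD3 read 2266 and 2553. The other kept probe set of ATF3 went the other way, at 141 and 107. Dimmer probe sets of 3 genes of this list passed 2-fold where the brightest did not. That of SMAD3 went from 639 to 1311, 2.05-fold higher, that of E2F4 from 54.9 to 126, 2.29-fold higher, and 1 of 6 for YY1 from 116 to 56.3, at background, at least 2.05-fold lower. Of 7 genes that control the stability of ID proteins, SMURF2, a ubiquitin ligase, was the one called, from 1312 to 2806, a 2.14-fold rise, with 3 of its 4 kept probe sets past 2-fold. USP1, which removes ubiquitin from ID proteins, read 7896 and 6878.

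Of 13 measured partners outside the bHLH class, 2 were higher and none was lower, against 3.94% and 2.96% of all genes. Both were ETS factors, ETS2 at 2.52-fold, with both probe sets past 2-fold, and ELK3 at 2.30-fold, with 1 of its 2 probe sets past it. The retinoblastoma protein RB1, a partner of ID2, read 1876 and 1684, and its other kept probe set had a log2 fold change of -0.77. Of 9 measured genes linked to E-protein or ID activity, 3 were higher and 1 was lower. CDKN1A, the cell cycle inhibitor p21, went from 1154 to 2792, a 2.42-fold rise. The cell cycle inhibitors did not share a direction. CDKN1B read 3498 and 2258, a log2 fold change of -0.63, and CDKN1C read 138 and 191, and neither was called. THBS1, thrombospondin 1, known to be repressed by ID1 and also drawn by the study from these arrays, was 5.85-fold higher, and the protease gene MMP2 was 2.15-fold higher. CDH1 (E-cadherin), which E proteins can repress, went from 1952 to 846, a 2.31-fold fall. CDKN2A was not called, at 63.9 and 52.5, the latter at background.

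Markers were checked against the label of the cell line. All 7 epithelial markers were above background on both arrays. Their signals summed to 76567 without and 90622 with TGF-β, which was set mostly by the bright probe sets of KRT18, KRT7 and KRT8. The log2 fold changes of these 3 keratins were 0.18, 0.64 and 0.22. Those of the other markers were -1.21 for CDH1, -0.59 for KRT19, -0.57 for CLDN2 and -0.43 for EPCAM, and the median over the list was -0.43. None of 5 fibroblast markers and 1 of 5 endothelial markers was above background on both arrays, with sums of 173 and 127 and of 93.2 and 121. Of 4 measured immune markers 3 were above background, with sums of 365 and 292, and the defining marker PTPRC was at background. These 3 did not share a direction. CD14 was lower, while CD79A read 104 and 133 and CD3E read 48.8 and 74.8, neither called. The falls of CDH1, of CD14, from 190 to 63.0, and of the fibroblast marker THY1, from 82.5 to 21.8 and thus at background with TGF-β, at least 1.46-fold, ran in the same direction as those of ID2 and ID4. Their part in those results was not tested.

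**Figure D4:**
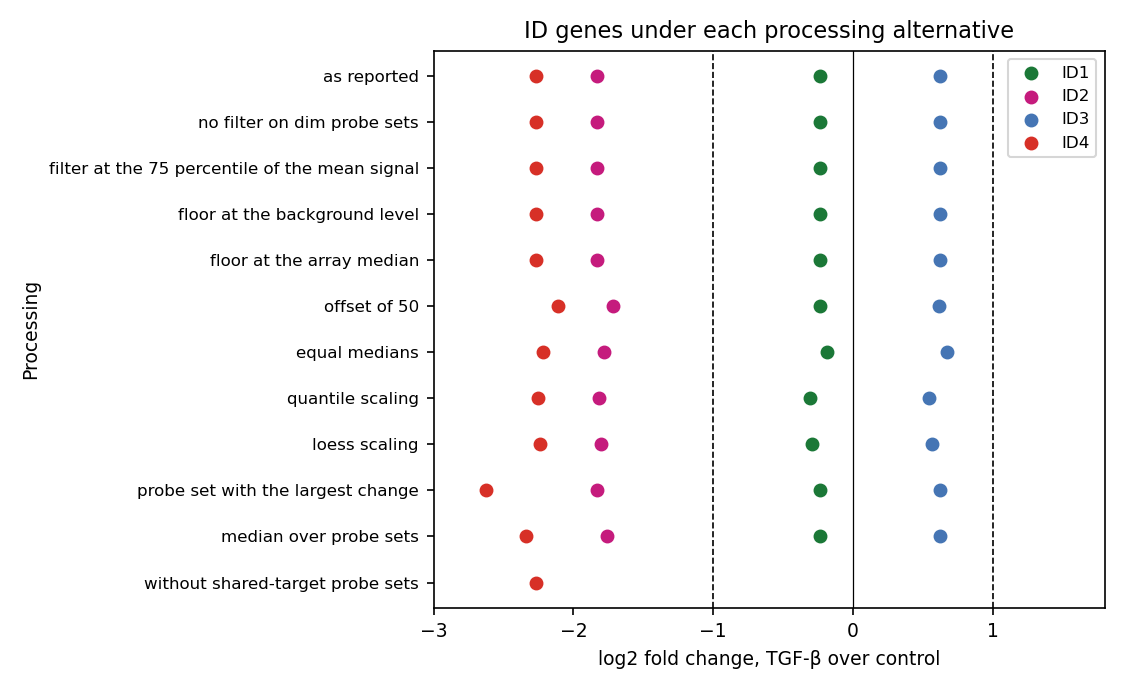
log2 fold change of TGF-β over control of each ID gene (x axis) as reported and under 11 other ways of processing (y axis), with dashed lines at 2-fold. ID2 and ID4 stay left of the lower line and ID1 and ID3 between the lines wherever a value exists. The filters and floors could not move these values, because the signals lay above every floor and their means above every cut. ID1, ID2 and ID3 have no value once shared-target probe sets are left out.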

How the data were processed

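A single Affymetrix array was hybridized for the control and for TGF-β. The authors deposited intensities from MAS5, named without a version in the submitters' processing notes. The mean of each array after trimming 2% at each end was 500.1, so the authors had scaled both to the same target. Other settings: not given in the sources used here.

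Signals were used without further scaling. Probe sets were named from the platform annotation, with symbols updated by gene identifier through RefSeq (GRCh38.p14). Of 54613 probe sets, 41091 had 1 symbol, 1801 several and 11721 none, and only the first were used for genes. Ratios were computed with Python 3.11.15, numpy 2.4.6 and pandas 2.3.3, loess (span 0.3) with statsmodels 0.14.6, and plots with matplotlib 3.10.9. The spread near a gene is 1.4826 times the median absolute deviation. The 2-fold rule was also run on simulated data, where all planted changes lay past 2-fold. That run therefore does not show how the rule performs on these arrays. Named were all ID and E-protein genes, in each list up to 4 genes past 2-fold in each direction or else the most changed, and the 3 genes nearest each member. Other genes, such as HES1, RB1 and USP1, were chosen after their values were seen, and some genes within the rule are left out. The members, lists and background level were chosen with earlier results of these data known.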

Additional observations from a re-analysis of the deposited data

How the results depend on the processing

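Other ways of processing tell nothing of the variation between cultures. The log2 fold changes lay between -1.83 and -1.71 for ID2, -2.63 and -2.11 for ID4, -0.31 and -0.19 for ID1 and 0.55 and 0.67 for ID3, each on its side of 2-fold wherever a value existed. The ID4 log2 fold change of -2.63 came with the probe set of largest change, whose TGF-β signal was at background. Without shared-target probe sets only ID4 had a value. ID1 and ID3 had a single probe set each, so taking the most changed probe set or the median could not alter their values. The filters and floors could not alter the value of any ID gene, because the signals lay above every floor and their means above every cut. The 5 member probe sets at least 2-fold lower became 2 under the 75 percentile filter and 2 without shared-target probe sets, because fewer probe sets remained. The 366 genes at least 2-fold lower and 487 higher numbered 2395 and 2110 when no filter was used, 63 and 197 under the 75 percentile filter and 134 and 295 after adding an offset of 50. Lower genes numbered 205 with the floor at background and 596 when the most changed probe set stood for a gene. The 3 lower genes of the lists numbered 16 with no filter, 1 under the 75 percentile filter, 1 after the offset and 6 by the most changed probe set. By construction the filters, floors and offset bear on dim signals. The cause of other shifts was not tested. Signals near background limit the folds of the dimmer ID4 probe sets. No paired analysis was possible because each condition had 1 array.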
